A study of Nothobranchius furzeri with 20 samples.

Results

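The comparison described here sets 5 brains of 27-week-old turquoise killifish against 5 brains of 9-week-old fish that were not exercised, out of 20 libraries in all. The 27-week libraries are those with the title numbers JM139, JM140, JM141, JM143 and JM144, the later of the pair of runs of title numbers into which the 10 libraries of that age fall, and they are called the second run. The unexercised 9-week libraries are JM124, JM125, JM126, JM129 and JM130. All fish were males of Nothobranchius furzeri, strain MZM-04/10p, and total RNA of the brain was sequenced. Fish of the second run were 27 weeks old and are labelled as exercised in a swim tunnel, a chamber in which fish swim against a current, and the 9-week fish had no such treatment. Age and labelled exercise therefore changed together and cannot be told apart in this comparison. The treatment of the second run is taken from the labels alone, and had these fish not been exercised, the comparison would be one of age. The other libraries are 5 fish of the first 27-week run (JM132 to JM136) and 5 exercised fish of 9 weeks, both labelled with the swim tunnel. The labels do not distinguish the runs, give no duration of exercise and no time of sampling, and do not state whether each library is a separate fish. The p-values measure the spread between these libraries, which are called fish here.

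The turquoise killifish is an annual fish of temporary ponds, with one of the shortest lifespans among vertebrates kept in captivity. Its brain is known to show age-related changes within that short life, among them gliosis and a decline in adult neurogenesis. RNA-seq of a whole brain measures a mixture of neurons, glia, vessels and blood, so that fewer cells of a type and less RNA per cell cannot be told apart. Genes are given by the identifiers of the deposited tables. None of the 26739 identifiers matched a name in the RefSeq table used, that is, 0 matched, so no function is stated for any gene and the brain label was not checked against marker genes.

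The 27-week fish were chosen by title number, with earlier results of these data known, because their expression profiles had been seen to part between the runs. In a principal component analysis of the 19 libraries other than JM141, the second component held 15.0% of the variance. On it the fish of the second run lay at -3.96 (JM139), 4.07 (JM140), -0.636 (JM143) and -0.974 (JM144). The first run lay between 17.7 and 52.8, and the 9-week fish between -23.4 and -0.683. These positions are a description of how the runs were chosen, and they carry no test. The p-values given for the second run are likewise those of groups chosen with results in view.

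JM141 stood apart from the rest before any comparison. Among 18153 genes that averaged 1 CPM or more (CPM is a gene's count rescaled to a common library total), 805 stood 4-fold or more above their mean in the remaining 19 libraries, and 269 stood 4-fold or more below it. The other 19 libraries had 10 to 151 genes above and 16 to 123 genes below. The 805 genes held 25.8% of the counts of JM141, against 1.17% to 1.84% in the other libraries. Its 10 most counted genes took 10.4% of its counts, and the same 10 genes took 0.964% to 1.42% elsewhere. Of these 10 genes, 2 were also among the 10 most counted genes of the other 19 libraries together. Results that rest on JM141 are therefore given with it and without it.

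**Figure D1:**
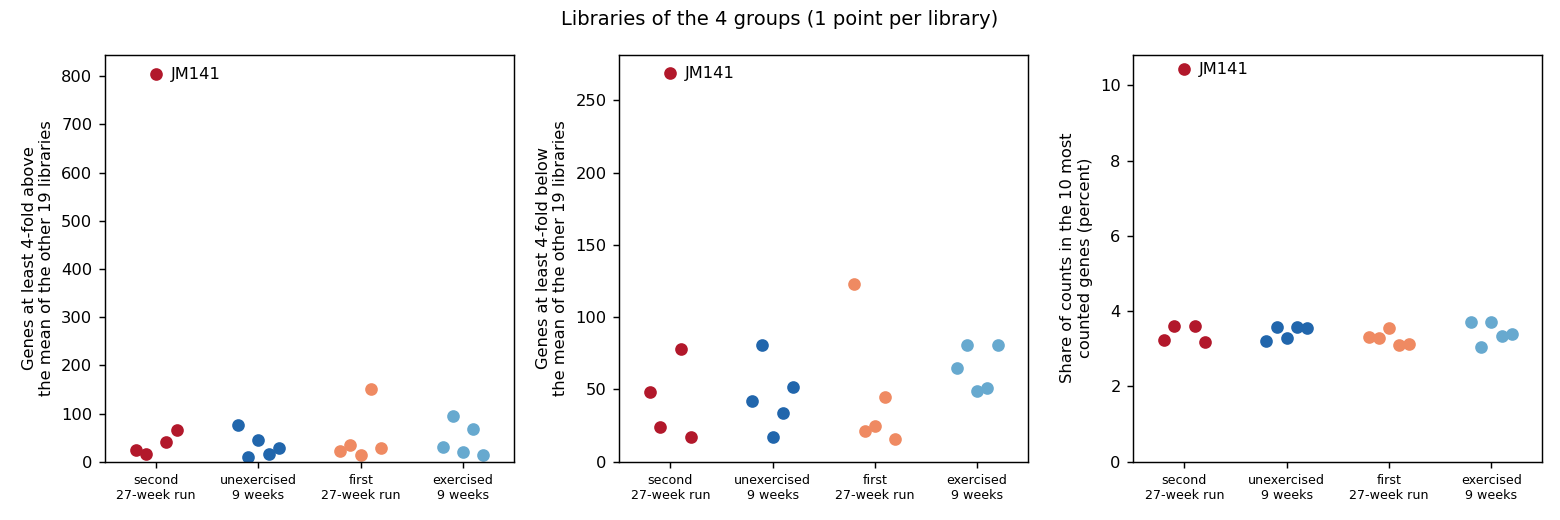
Each point is a library, and the panels show, from left to right, the number of genes 4-fold or more above their mean in the remaining 19 libraries, the number 4-fold or more below it, and the percentage of counts in the 10 most counted genes. JM141, in the second 27-week run, lies at 805 genes, 269 genes and 10.4%, and the other libraries lie at or below 151 genes, 123 genes and 3.72%.

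The libraries of the compared groups, JM141 included, were alike in depth. The second run had 24301659 to 28564200 counts per library and the unexercised fish 22260804 to 29891279. Genes with at least 1 count numbered 21755 to 21853 in the second run and 21702 to 21928 in unexercised fish. Neither difference passed an exact permutation test with JM141 (two-sided, adjusted p = 0.968 for both over 6 library measures) or without it (adjusted p = 0.897 for both). With all 5 fish the median distance of a fish from the mean of its own group was 0.144 ± 0.0486 log2 CPM in the second run and 0.0979 ± 0.00812 log2 CPM in unexercised fish (SD, n = 5 each). JM141 stood at 0.230 and the other 4 fish at 0.115 to 0.128, measured from a group mean that holds JM141, and from a mean without it these 4 stood at 0.0910 to 0.112. No test of this distance is given with JM141, which was already known to stand apart. Without JM141 the second run stood at 0.100 ± 0.00900 log2 CPM (n = 4), where the difference was 0.00218 (adjusted p = 0.897, exact permutation test). Each distance was taken from a mean that holds the fish itself, over 4 fish against 5, so this p-value does not test equal spread.

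The same contrast appeared in the biological coefficient of variation, the spread between fish that counting error does not account for, as edgeR estimates it within a group. It was 0.438 in the second run, 0.188 in the second run without JM141 and 0.184 in unexercised fish. Over the 18153 genes, 1532 ranged at least 4-fold among the 5 fish of the second run, 434 did so among the 4 fish without JM141, and 533 did so among the 5 unexercised fish. A range tends to widen with more fish, so the count over 4 fish cannot be set directly against those over 5. Pairs of the 4 fish differed by a median of 0.145 to 0.176 log2 CPM, pairs of unexercised fish by 0.130 to 0.167, and pairs across these groups by 0.156 to 0.237. The 3 ranges overlapped.

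Few genes were called in edgeR between the second run and unexercised 9-week fish, and most of them were higher at 27 weeks. Of 19389 genes tested, 201 (1.04% of those tested) passed an adjusted p of 0.05 in edgeR's quasi-likelihood test, 140 higher (0.722%) and 61 lower (0.315%). Rises were the larger changes: the median log2 fold change was 0.91 among the 140 rises and -0.56 among the 61 falls. At least 2-fold changes numbered 71, of which 63 were rises and 8 were falls. Before adjustment 4393 of the 19389 genes had p below 0.05, more than the share of 0.05 that no difference would give on average. Genes vary together across libraries, so this excess is not a test of a difference between the groups. Exercised against unexercised 9-week fish had 2316 of 19123 genes below 0.05, and 19 were called (0.0994% of those tested). Over all genes tested with JM141, the 25th and 75th percentiles of the log2 fold change were -0.14 and 0.21, with a median of 0.03. Leaving out JM141 gave -0.13 and 0.13, with a median of 0.00555. The 99th percentile was 3.71 with JM141 and 1.25 without it.

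Without JM141 more genes passed, and fewer had a fitted rise of at least 4-fold. Of 19492 genes tested, 320 (1.64% of those tested) passed, 199 higher (1.02%) and the remainder lower (0.621%). Unadjusted p was below 0.05 for 3701 genes, again more than a share of 0.05 and under the same limit. The median log2 fold change was 0.80 among the 199 rises and -0.51 among the falls, and 92 changes reached 2-fold, 81 of them rises. With JM141, 389 genes had a fitted rise of at least 4-fold and 9 of these passed. Of the 389, 344 belonged to the 805 genes by which JM141 stood apart, of which 728 were among the 19389 tested. The 805 were picked for their level in JM141, so this overlap follows in part from the choice. Without JM141, 50 genes had a fitted rise of at least 4-fold, and 17 of them passed. Of the 50, 18 belonged to the same set (728 of 19492 tested). In the first run against exercised 9-week fish, 36 of 56 such rises did (692 of 19060 tested). Falls of at least 4-fold numbered 31 with JM141 and 29 without it, of which 3 and 5 passed.

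With and without JM141, 185 genes were called, 59 of them lower and the remainder higher. They made up 92.0% of the genes called with JM141 and 57.8% of those called without it. The versions share 9 of 10 libraries, and 0 of them changed direction. The 16 genes called only with JM141 had adjusted p between 0.0521 and 0.0697 without it. The genes called only without JM141, 42.2% of the calls made without it, had, where tested, adjusted p between 0.0503 and 0.985 with it, with a median of 0.0993.

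**Figure D2:**
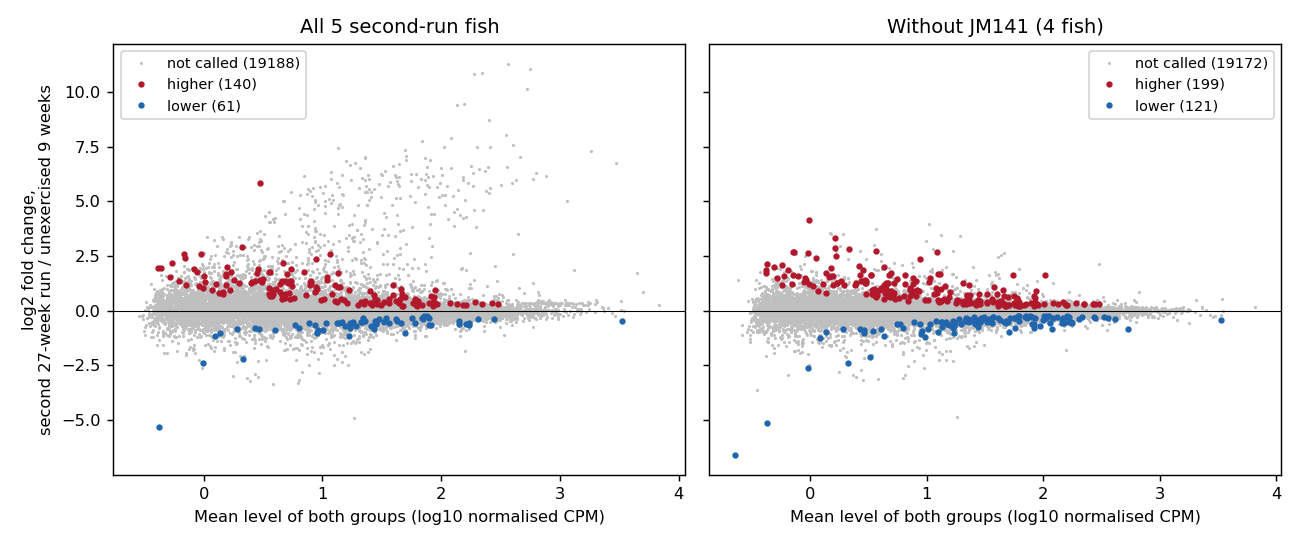
The log2 fold change of the second 27-week run over unexercised 9-week fish is plotted against the mean level of both groups (log10 normalised CPM), 1 point per gene, with all 5 fish on the left and without JM141 on the right. Called genes are coloured, 140 higher and 61 lower on the left, and 199 higher and 0.621% of the genes tested lower on the right. The cloud of large uncoloured rises on the left is thinner on the right. Fitted rises of at least 4-fold number 389 on the left (9 called) and 50 on the right (17 called).

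The counts changed widely when a library of either group was left out. Each such fit also has 1 fish fewer, and the part of this in the counts was not tested. With 1 further library left out, the count of 201 was 26 without JM140, 23 without JM143, 22 without JM124, 18 without JM125, 40 without JM126, 13 without JM129 and 35 without JM130, against 159 without JM139 and 232 without JM144. Over the 201 genes, kept or lost, the median adjusted p ran between 0.0276 and 0.0898 in the 10 fits, that without JM141 included. The highest adjusted p of any of these genes was 0.142, in the fit without JM124. In each of the 10 fits 13 genes passed, 9 higher and 4 lower, and 11 of the 13 changed at least 2-fold. Without JM141, where 1.64% of genes tested were called, leaving out a further library gave 0.459% without JM140, 0.286% without JM143, 0.448% without JM124, 0.764% without JM126, 0.464% without JM129 and 0.737% without JM130, against 1.19% without JM139, 1.44% without JM144 and 1.29% without JM125. As counts, these fits had 56 to 282 genes. Without JM140 the excess of rises turned, with 41 genes higher and 49 lower. Of the genes called without JM141, 48 passed in each of the 9 fits, 29 higher and 19 lower. The test mattered as well: DESeq2 called 1273 genes with JM141 (698 higher and 575 lower, or 54.8% rises against 69.7% in edgeR) and 1137 without it.

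**Figure D3:**
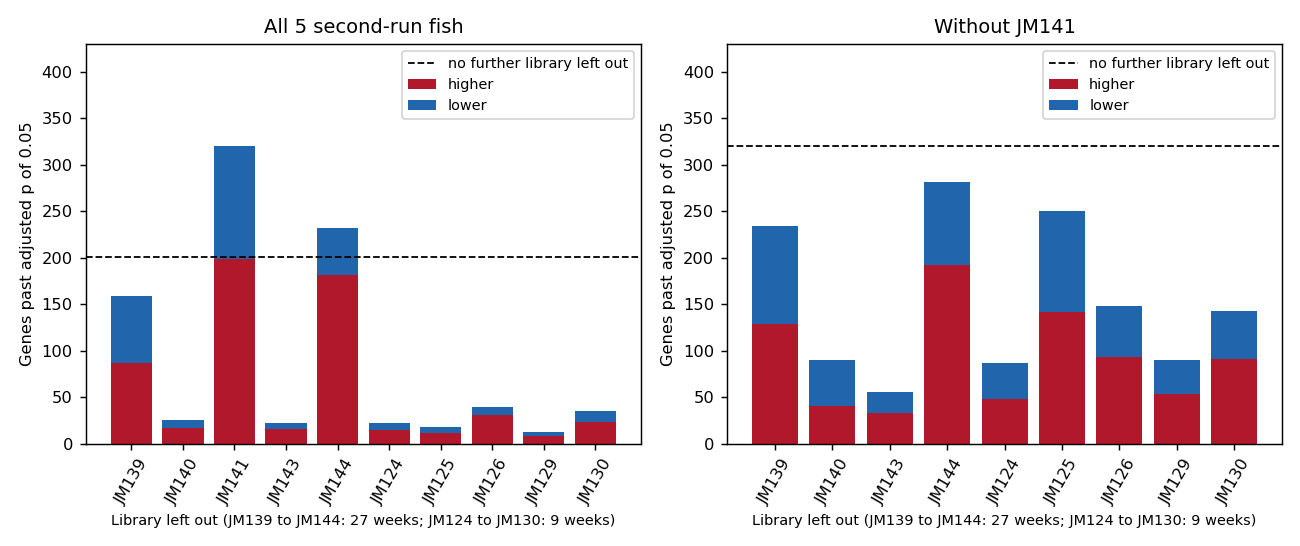
Bars give the number of genes past an adjusted p of 0.05, higher and lower in the second 27-week run, when the named library is left out of the edgeR fit. The left panel starts from all 5 fish (201 genes, dashed line) and the right panel from the 4 fish without JM141 (320 genes, dashed line). In the left panel 7 of the 10 fits have 13 to 40 genes.

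Fish left out of a fit gave a view of the genes that they had not helped to choose. Of 199 genes called higher without JM141, JM141 lay above every unexercised fish in 191, or 96.0%, where it did so for 35.0% of all genes tested. Among the genes called lower without it, JM141 lay below every unexercised fish in 102, or 84.3%, against 35.8% of all genes tested, and above every unexercised fish in 14. JM141 thus lay on the side of the other 4 fish for most genes that these 4 fish picked out, although it also lay outside the range of unexercised fish for most genes overall. JM139 lay above every unexercised fish in 83 of 87 genes called higher without it (20.4% of all genes tested) and below in 58 of 72 called lower (19.9%). JM144 did so in 73.1% of 182 higher genes (18.6% of all) and 47 of 50 lower genes (21.2%). For JM140 the counts were 17 of 17 (19.5%) and 8 of 9 (20.7%), and for JM143 they were 16 of 16 (27.7%) and 7 of 7 (24.8%). The unexercised fish were the same in the fits and in these counts, which are a description.

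Groups that did not overlap were more frequent than calls. The 5 fish of the second run all lay above the 5 unexercised fish in 768 genes (3.96% of those tested) and all below them in 624 genes (3.22%). Without JM141 these numbers were 864 (4.43%) and 747 (3.83%). Smaller groups separate fully more often by chance, so these counts cannot be set directly against those with all 5 fish. If group labels were arbitrary, the share separated in either direction would average 0.00794 for 5 fish against 5 and 0.0159 for 4 against 5. Genes vary together across libraries, so the excess over these shares is not a test. Of the 140 called rises 138 belonged to the genes that did not overlap with JM141 included, as did the 61 called falls. Calls and non-overlap rest on the same libraries, so this overlap follows in large part from the choice. The same holds for the named genes below, which were picked from the calls. Of all genes, 0 had no count in any unexercised fish and at least 10 counts in every fish of the second run, with or without JM141, and 0 had the reverse.

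The genes named for the largest change in each direction were scarce in the group where they were lower. By the rule for named genes, Nfu_g_1_009838 had the largest rise among genes that passed with and without JM141 and averaged at least 1 CPM in the higher group. Its level was 0.957 (JM139), 1.42 (JM140), 21.8 (JM141), 1.74 (JM143) and 3.27 (JM144) normalised CPM in the second run, against 0.0905, 0.148, 0.0334, 0.101 and 0.132 normalised CPM in unexercised fish. The groups did not overlap, JM141 was the highest, and the unexercised libraries held 1 to 4 counts each against 24 to 458 in the second run. The log2 fold change was 5.83 (SE 1.11, edgeR adjusted p = 0.0456, n = 5 each) with JM141 and 4.16 (SE 0.46, edgeR adjusted p = 0.0115) without it, higher in 5 of 5 and 4 of 4 fish. The call was lost when JM140, JM143, JM144 or any of the 5 unexercised fish was left out, at edgeR adjusted p of 0.0513 to 0.129.

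In the remaining groups Nfu_g_1_009838 varied over a wide range. The first run had 0.363, 0.716, 0.142, 59.8 and 1.87 normalised CPM in JM132 to JM136, and exercised 9-week fish had 0.0561 to 0.343. In the first run JM135 was far above the others, JM132 was just above the range of the exercised 9-week fish and JM134 was within it. The gene was not among those tested in the comparison of those groups, and no fold is given there.

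Among more abundant genes, Nfu_g_1_019726 had the smallest p of the rises. Its level was 16.5, 22.0, 24.2, 23.4 and 17.7 normalised CPM in JM139, JM140, JM141, JM143 and JM144, against 6.06, 6.90, 8.29, 5.48 and 4.84 normalised CPM in unexercised fish. The lowest fish of the second run stood at about the highest unexercised value multiplied by 2, and JM141 was close to its group. The means were 20.8 ± 3.47 and 6.32 ± 1.34 normalised CPM (SD, n = 5 each), a log2 fold change of 1.74 (SE 0.17, edgeR adjusted p = 0.0110, higher in 5 of 5 fish), or 1.67 without JM141 (SE 0.17, edgeR adjusted p = 0.00907). The call held whichever library was left out, with log2 fold changes of 1.64 to 1.85. The first run averaged 14.6 ± 3.34 and exercised 9-week fish 10.5 ± 1.99 normalised CPM (n = 5 each), a log2 fold change of 0.51 that missed the threshold (edgeR adjusted p = 0.0782, SE 0.18). The difference between these effects was not tested.

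Nfu_g_1_021005 had the largest fall under the same limits. Its level was 0.399, 0.177, 0.476, 0.371 and 0.118 normalised CPM in JM139, JM140, JM141, JM143 and JM144, against 0.860, 1.74, 1.20, 1.45 and 2.99 normalised CPM in unexercised fish. The groups did not overlap, with 3 to 10 counts per library in the second run and 19 to 68 in unexercised fish. It was lower in 5 of 5 fish, with a log2 fold change of -2.40 (edgeR adjusted p = 0.0398, SE 0.44), and of -2.60 without JM141 (SE 0.46, edgeR adjusted p = 0.0293). The call was lost when any library other than JM141 was left out, at edgeR adjusted p of 0.0513 to 0.0990. The first run had 0.190 to 0.333 and exercised 9-week fish 0.424 to 1.29 normalised CPM, and the gene was not among those tested in that comparison.

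Nfu_g_1_013299 had the smallest p of the falls among genes of at least 10 CPM. Its level was 5.98, 4.37, 5.95, 6.57 and 6.34 normalised CPM in JM139, JM140, JM141, JM143 and JM144, against 10.9, 12.6, 12.4, 11.0 and 13.4 normalised CPM in unexercised fish. The groups did not overlap, and JM140 was the lowest of the second run. It was lower in 5 of 5 fish, with a log2 fold change of -1.03 (edgeR adjusted p = 0.0110, SE 0.12), or -1.04 without JM141 (SE 0.13, edgeR adjusted p = 0.0121), and the call held whichever library was left out. The first run had 5.62, 4.90, 4.12, 7.32 and 5.56 normalised CPM, against 9.71, 12.1, 13.1, 10.2 and 13.8 in exercised 9-week fish. This fall was also called, lower in 5 of 5 fish at a log2 fold change of -1.07 (edgeR adjusted p = 0.00222, SE 0.16).

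**Figure D4:**
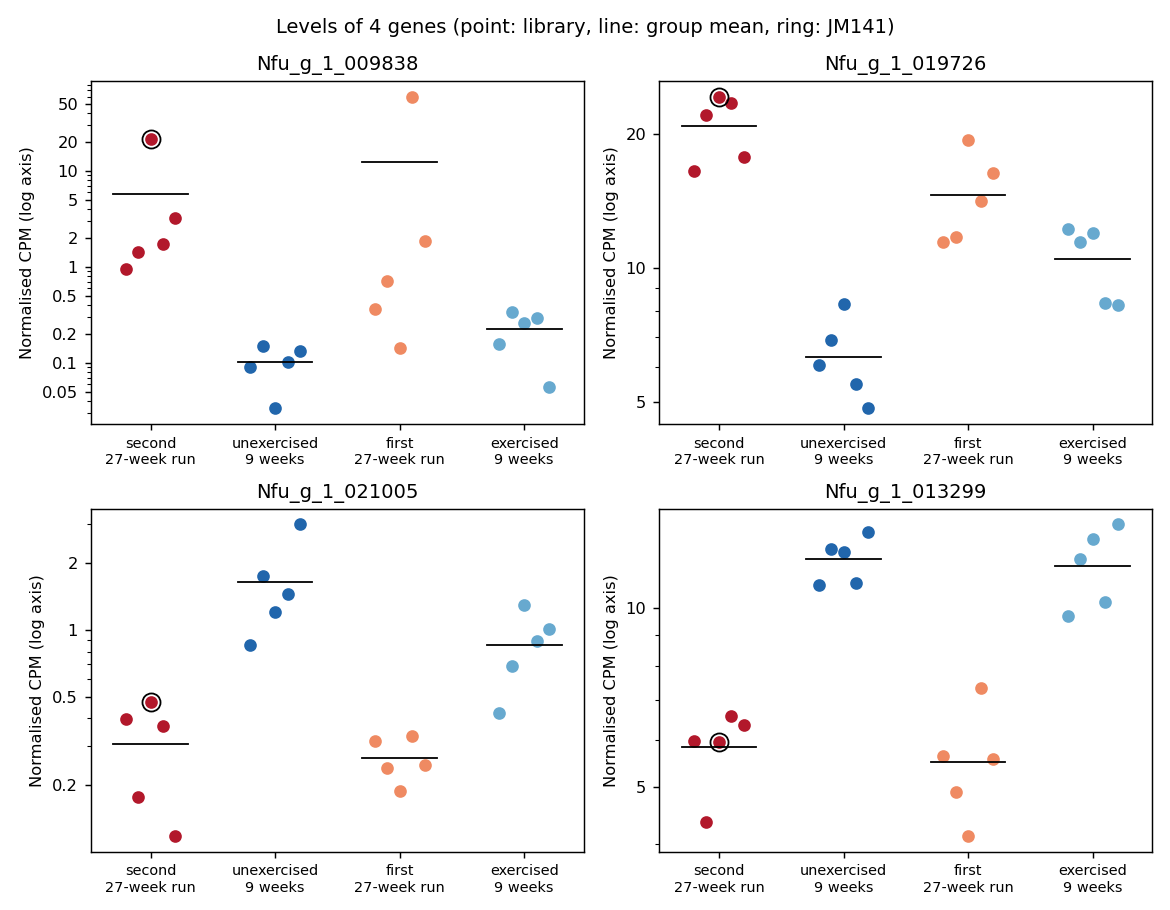
Each panel gives the normalised CPM of a named gene on a log axis, 1 point per library, with the group mean as a line and JM141 ringed. The second 27-week run lies wholly above unexercised 9-week fish for Nfu_g_1_009838 and Nfu_g_1_019726 and wholly below them for Nfu_g_1_021005 and Nfu_g_1_013299. For Nfu_g_1_013299 the first run lies wholly below the exercised 9-week fish as well.

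The first run against exercised 9-week fish is a comparison of 27 with 9 weeks that shares no library with the comparison of the second run. By the labels both of its groups were exercised, whereas the second run and the unexercised fish differed in labelled exercise as well as age. The first-run comparison called 3132 of 19060 genes (16.4% of those tested), 1784 higher (9.36%) and 1348 lower (7.07%), again in edgeR. The excess of rises turned with DESeq2 (1878 higher and 1944 lower), in edgeR without JM135 of the first run (1266 higher and 1343 lower) and in edgeR without JM118 of the exercised fish (1020 higher and 1237 lower). Of 137 genes called higher in the second run with JM141 and tested in both comparisons, 28, or 20.4%, were called higher in the first run, against 9.35% of all 18985 genes tested in both, and 4 were called lower. Of 60 genes called lower, 19, or 31.7%, were called lower in the first run, against 7.10% of all, and 0 were called higher. The 28 and 19 genes made up 1.58% and 1.41% of the genes called in the first run in those directions.

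Without JM141 the shared part was of similar size. Of 194 rises 53, or 27.3%, were called higher in the first run (9.35% of all 19014 genes) and 4 were called lower, and 28 of the falls tested in both, or 23.5%, were called lower (7.08% of all) and 0 were called higher. The direction was shared more often than the call: 167 of the 194 rises, or 86.1%, were also higher in the first run, where 52.0% of all genes were, and 104 of the falls, or 87.4%, were also lower, where 48.0% of all genes were. With JM141 the direction was shared by 114 of 137 rises (83.2%) and 51 of 60 falls (85.0%). Without it, the changes were smaller in the first run, with a median log2 fold change of 0.78 in the second run against 0.36 in the first for the rises, and of -0.49 in the second run against -0.25 in the first for the falls. With JM141 these medians were 0.85 against 0.29 for the rises and -0.56 against -0.32 for the falls. Genes were chosen in the second run, so that their size is given for description. The 4 genes called in opposite directions rose by 0.31 to 0.96 on the log2 scale in the second run and had log2 fold changes of -1.77 to -0.21 in the first run.

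Over all genes tested in both comparisons, log2 fold changes of the second run correlated with those of the first run at Pearson's r = 0.38 and Spearman's rho = 0.35 with JM141, and at 0.28 and 0.33 without it (18985 and 19014 genes). These values are across genes, which are not independent replicates, and carry no test. All 20 libraries share the strain, sex and tissue. Of the 185 genes called both with and without JM141, 59 of them lower, 44 were also called in the first run in the same direction. These were 26 higher and 18 lower. Among all 18985 genes tested in both comparisons, the first run called 9.35% higher and 7.10% lower, so some such overlap arises by chance.

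**Figure D5:**
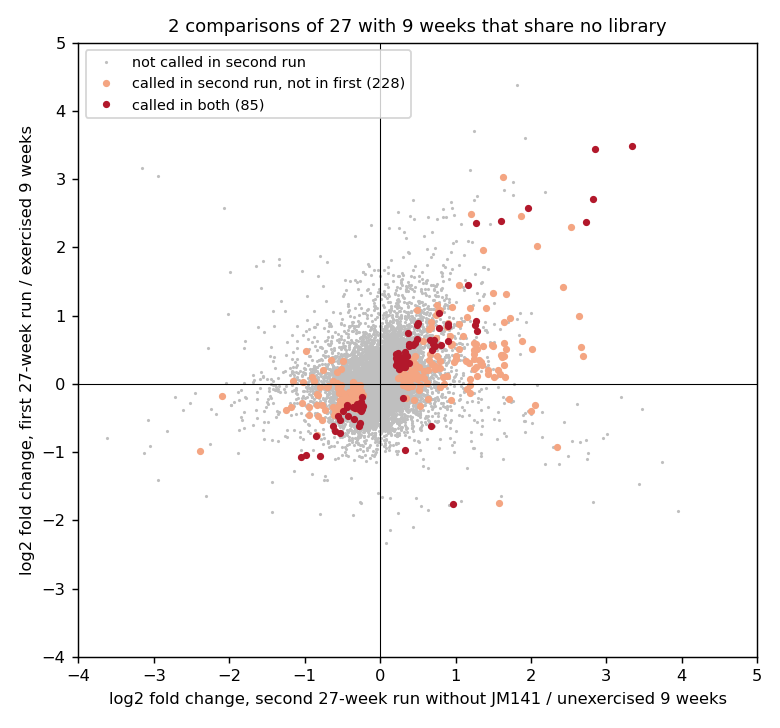
Each point is a gene, with the log2 fold change of the second 27-week run without JM141 over unexercised 9-week fish on the horizontal axis and that of the first run over exercised 9-week fish on the vertical axis. Of the genes called in the second run, 85 were called in the first run and 228 were not, and most lie in the lower left or upper right. The axes leave out 3 genes, of which 1 was called.

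Set beside the first run, far fewer genes were called in edgeR for the second run. Against the same 5 unexercised fish, the second run had the 201 and 320 called genes given above, and the first run had 4425 of 19240 (23.0% of those tested). The comparisons share the unexercised fish, and a test of the runs against each other was not made, because the runs were chosen for their difference. The biological coefficient of variation of the second run was 0.438 with JM141 and 0.188 without it, against 0.205 in the first run, and its part in these counts was not tested. Against the exercised 9-week fish, edgeR called 114 of 19248 genes for the second run (0.592% of those tested), and 260 of 19367 without JM141 (1.34%). These comparisons share the libraries of the second run with those above, and no overlap between them is given.

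Median log2 fold changes differed by gene length. With the gene lengths that the deposited tables imply, the median log2 fold change was 0.06 for 2473 genes under 800 bp, 0.07 for 5180 genes of 1500 to below 3000 bp, -0.04 for 2058 genes of 6000 to below 9000 bp and -0.13 for 854 genes of 9000 bp or more. Without JM141 these medians were 0.03, 0.03, -0.04 and -0.10. For the first run against exercised 9-week fish they were 0.02, 0.04, -0.03 and -0.06, so the pattern was not particular to the second run. The slope of a library's log2 CPM on log2 gene length was -0.0042, -0.0133, -0.0811, -0.0205 and -0.0047 in JM139, JM140, JM141, JM143 and JM144, and -0.0097 to 0.0184 in unexercised fish. The groups overlapped, and the difference of -0.0315 did not pass (exact permutation p = 0.0238, adjusted p = 0.0714, two-sided), nor did that of -0.0174 without JM141 (exact permutation p = 0.0397, adjusted p = 0.214). In the longest class 3 genes rose and 2 fell with JM141 (0.585% of its genes, against 1.04% overall), and 3 rose and 6 fell without it (1.05%, against 1.64% overall). The median length was 2721 bp among rises, 2485 bp among falls and 2675 bp among all genes tested with JM141, and 2589, 2485 and 2668 bp without it.

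The median level of the rises was lower than that of the falls. Over all 20 libraries the 140 rises had a median of 7.68 normalised CPM, the 61 falls one of 22.7 and all genes tested one of 18.1. Without JM141 the medians were 11.5 for rises and 35.4 for falls, against 17.9 for all. Without JM141, 20 genes rose and 2 fell below 1 CPM (1.42% of that class called), 83 rose and 19 fell from 1 to below 10 CPM (1.71%), 83 rose and 70 fell from 10 to below 100 CPM (1.58%), and 13 rose and 30 fell at 100 CPM or more (1.85%). The shares called lay near the 1.64% of all genes tested. With JM141, 13 rose and 2 fell below 1 CPM (1.18%), 64 rose and 13 fell from 1 to below 10 CPM (1.31%), 55 rose and 38 fell from 10 to below 100 CPM (0.942%), and 8 rose and 8 fell at 100 CPM or more (0.674%). Without JM141 the standard error of a log2 fold change was 0.18 in the median gene from 1 to below 10 CPM and 0.07 in that of the class at 100 CPM or more.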

How the data were processed

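For all 20 libraries the authors deposited counts and RPKM per gene, whose columns carry the sample titles. Named in the submitters' processing notes, without role or order, are featureCounts 1.4.6-p4, STAR 2.4.1d and bcl2fastq 1.8.4. The sources used here do not give genome build, annotation or strand setting, and reads of near-identical, overlapping or antisense genes may be mixed. Libraries were made with a TruSeq RNA kit, per the labels' protocols. The deposited RPKM values had been divided by library totals taken in turn down the table: over 12248 genes the implied gene length varied by a log2 SD of 6.73e-05 with those totals and of 0.42 with each library's own. RPKM served only to derive lengths (23078 genes).

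No replicates were alike within sampling noise (lowest chi-square per degree of freedom 7.86). Each pair of groups was fitted in edgeR 4.0.16 under R 4.3.3 (filterByExpr, TMM, quasi-likelihood test, two-sided, Benjamini-Hochberg adjusted p below 0.05 over all genes tested), with limma 3.58.1, DESeq2 1.42.0, DESeq2 size factors, other filters on low counts, all 4 groups in one fit, removal of the length trend and leaving out each library as alternatives. The standard error is the log2 fold change over the root of the F value. Levels are CPM scaled by TMM factors over all 20 libraries; log2 CPM used a prior count of 2. Library values were compared by exact permutation over all 252 splits (126 without JM141), adjusted over 6 measures. The edgeR steps were tested on simulated data. Named genes were, in each direction, the largest change (mean of at least 1 CPM) and the smallest p (at least 10 CPM) among genes called with and without JM141. Members, comparisons and lists were chosen with earlier results of these data known. Planned marker lists were not used, since no identifier matched a name in the RefSeq table of NfurGRZ-RIMD1.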

Additional observations from a re-analysis of the deposited data

Results flagged for a closer look

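A value was looked at again where the gap between the highest or lowest fish of a group and its neighbour took up most of the range of the group. Among 28 groups of 5 values this held for 7, and chance alone gives about 1 in 20 for independent, normally distributed values. The groups include CPM levels of named genes picked from these data, so that rate is only a rough guide. Of the 7, 5 were JM141, which had been singled out beforehand, on measures that are related to each other, and they are a description. JM141 had the highest share of counts in the 10 most counted genes of the second run, 10.4%. It had the lowest TMM factor, 0.736. It had the lowest length slope, -0.0811. It had the largest distance from the mean of its group, 0.230 log2 CPM. It had the highest level of Nfu_g_1_009838, 21.8 normalised CPM. In the first run JM135 had the highest level of the same gene, 59.8 normalised CPM. In the second run JM140 had the lowest level of Nfu_g_1_013299, 4.37 normalised CPM.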

How the results depend on the processing

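No paired analysis was possible because replicate numbers here only follow listing order. Shares of genes tested that passed are given, beside 1.04% for the second run against unexercised fish. The share was 0.549% of 22937 genes with no filter, 6.53% with DESeq2 (1273 genes), 1.95% with limma-voom and library weights (379 genes) and 6.37% with all 4 groups in one fit (1256 genes), and it ran from 0.0666% to 1.64% when a library was left out. Without JM141 the share of 1.64% was 5.51% with DESeq2 (1137 genes), and it ran from 0.286% to 1.44% when a further library was left out. The first run against exercised fish (16.4%) ran from 11.1% to 14.4%, or 2119 to 2770 genes, when a library was left out. The other planned settings moved these counts by less than 1.5 times. Without JM141 the difference in total counts was -421748, that in the share of the 10 most counted genes -0.0365 percentage points, that in TMM factors 0.0229 and that in distance from the group mean 0.00218 log2 CPM. Nfu_g_1_019726 and Nfu_g_1_013299 kept their call in all 17 alternatives, and Nfu_g_1_009838 and Nfu_g_1_021005 also lost it with no filter (edgeR adjusted p = 0.0504 for both). Under the filter on a mean of at least 1 CPM, Nfu_g_1_021005 was not among the genes tested. The causes were not tested. Low counts limit Nfu_g_1_021005, with 3 to 10 counts per library in the second run.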
